A study of Mus musculus with 56 samples.

Results

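The genes described here are 10 members of the heterogeneous nuclear ribonucleoprotein (hnRNP) group in the mouse: Hnrnpa1, Hnrnpa2b1, Hnrnpc, Hnrnpd, Hnrnpf, Hnrnph1, Hnrnpk, Hnrnpl, Hnrnpm and Hnrnpu. They were chosen by name, not by any measured value, from 23259 genes listed in at least 1 gene table, and all 10 were found in every gene table. Bulk RNA sequencing covered 56 samples in 19 groups. Wild-type (WT) mice and mice with a knockout (KO) of Fmr1 gave 3 samples per genotype from each of 3 brain regions (cortex, hippocampus, cerebellum) and 3 other organs (liver, muscle, testis). Strain, age and sex of the mice are not known from the labels. N2a, a single established mouse neuroblastoma line, was treated with siRNA to knock down Fmr1 (siFmr1, 3 samples) or with a control siRNA without a target (siNT, 2 samples). A separate N2a experiment combined each siRNA with a plasmid, in 5 groups of 3 samples. The empty plasmid, pcDNA, went with siNT, siFmr1 or siMbnl1. A plasmid for MBNL1 with a FLAG tag went with the other two groups, its nuclear form with siFmr1 (called nMBNL1) and its cytosolic form with siMbnl1 (cMBNL1). Nothing in the labels says which samples came from separate animals or cultures, so p-values measure the spread between these samples, which may be technical.

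hnRNP proteins bind nascent transcripts in the nucleus and take part in splicing, export, stability and translation of messenger RNA. Each carries RNA-binding domains with its own sequence preference, and several control the splicing of their own transcripts. FMRP, the product of Fmr1, is an RNA-binding protein best known for control of translation in neurons, and its loss causes fragile X syndrome. MBNL1 is a splicing regulator that binds clusters of YGCY motifs.

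Skipped exon tables listed 163 distinct events of the 10 genes, over 81 exons, and 6 of these events were called in at least 1 table. Alternative exons that the results below turn on are shown here, in GRCm38 coordinates and read from GENCODE transcripts 5′ to 3′. The first pair are coding exons of Hnrnpa2b1 and Hnrnpd with wide differences between tissues. Capitals mark a run of 12 bases, GGTTATGGAGGA, that was found by comparing these 2 exons and occurs 1 time in each.
Hnrnpa2b1, chr6:51464428-51464547, minus strand: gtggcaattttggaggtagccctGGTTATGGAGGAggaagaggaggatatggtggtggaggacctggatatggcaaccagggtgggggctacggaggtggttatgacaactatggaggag
Hnrnpd, chr5:99963731-99963877, minus strand: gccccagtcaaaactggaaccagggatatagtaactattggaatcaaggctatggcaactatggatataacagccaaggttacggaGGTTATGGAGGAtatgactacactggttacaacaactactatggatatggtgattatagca

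Among annotated exons of the same length, this run was found in 1 of 2257 exons of 120 bases and 1 of 1892 of 147 bases, and in each case that exon was the one shown (0.0443% and 0.0529%). The run was picked as the longest that the 2 exons share, so these shares do not show that it is unusual. Both lengths are multiples of 3, and the exons are rich in G and A (68.3% and 59.2% of bases). The exons of Hnrnpa2b1 and Hnrnpd are coding in 3 and 2 transcripts. Neither exon held a YGCY motif (TGCT or CGCT, or either of these with C as its last letter) on the transcribed strand. At least 1 was found in 81.1% and 87.2% of exons of those lengths.

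One more exon, in Hnrnph1, is shown because its inclusion was called in the co-transfection experiment. Its product binds runs of G, and capitals mark every run of at least 3 G.
Hnrnph1, chr11:50381459-50381597, plus strand: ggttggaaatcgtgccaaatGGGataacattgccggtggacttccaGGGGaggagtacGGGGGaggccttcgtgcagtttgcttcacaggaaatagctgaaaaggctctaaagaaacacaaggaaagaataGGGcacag

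GGG occurred 7 times in this exon of 139 bases with overlapping matches counted, against a median of 2 in 1666 annotated exons of that length, of which 79.4% held at least 1. TAGGG, which overlaps GGG, occurred 1 time and was found in 4.0% of those exons. The exon is coding in 3 transcripts, and its length is not a multiple of 3. These matches describe letters in the exons and say nothing of which protein binds them.

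The brain libraries held 26264368 to 41384652 gene counts. Liver, muscle and testis libraries held 13230785 to 16168225, and those of the first N2a experiment 13273331 to 16268865. For the co-transfection experiment only normalized counts were used, so its depth is unknown. Fmr1 checked the labels: KO samples had 14.43 to 21.3 TPM (transcript abundance corrected for transcript length and depth) in the brain regions against 51.98 to 79.31 in WT, and KO and WT did not overlap in liver or testis. In muscle they overlapped (3.21 to 4.33 TPM in KO and 3.99 to 6.09 in WT). In the co-transfection experiment Fmr1 was 418 to 662 normalized counts in both siFmr1 groups and 2615 to 3604 elsewhere. Marker genes of each tissue were high in that tissue, for example a summed 3813 to 4841 TPM of Pcp2, Gabra6 and Cbln1 in WT cerebellum. The 3 cortex markers did not tell cortex from hippocampus (895.8 to 1196 and 968 to 973.7 TPM in WT). The 3 hippocampus markers were higher in WT hippocampus (173 to 195.8 TPM) than in WT cortex (54.84 to 85.4). Choroid plexus markers (Ttr, Folr1 and Kl) varied from 32.06 to 10520 TPM between WT hippocampus libraries and from 41.25 to 11410 in KO, and their part in the hippocampus results was not tested.

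The first question was how abundant each gene was in unperturbed tissue. In WT samples 9 of the 10 genes had their highest mean TPM in cerebellum, and Hnrnpf had it in testis. The lowest level was in liver for Hnrnpa1, Hnrnpa2b1, Hnrnpc, Hnrnpd, Hnrnph1 and Hnrnpm, and in muscle for Hnrnpf, Hnrnpk, Hnrnpl and Hnrnpu. For 3 genes the samples at the bottom of this order overlapped, Hnrnpa1 (liver and testis), Hnrnpc (liver and muscle, 46.18 and 46.52 TPM) and Hnrnpl (muscle and liver, 54.61 and 64.69 TPM), and for Hnrnpa1 and Hnrnpa2b1 the order of testis and liver depends on the scaling. Levels are set side by side here across tables that the authors processed per tissue. Per the labels, brain libraries were prepared differently from those of the other organs, so no test is given across brain and other tissues. Differences between brain and the other organs cannot be told apart from library preparation. In bulk tissue, fewer cells that express a gene and less RNA per cell cannot be told apart. Summed over the 10 genes, WT levels were 3311 ± 150.8 TPM in cerebellum, 2520 ± 64.72 in hippocampus, 2496 ± 90.37 in cortex, 1554 ± 39.95 in testis, 809.2 ± 20.13 in muscle and 775.9 ± 78.62 in liver (SD, n = 3 each).

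Among the A/B-type genes, which encode abundant proteins with a glycine-rich tail, Hnrnpa1 was at 437.25, 454.59 and 462.68 TPM in the WT cerebellum samples and at 41.32, 54.9 and 49.37 in liver. The 3 brain regions lay far above the other tissues, with a 9.3-fold ratio from the highest to the lowest mean. Cerebellum and hippocampus overlapped (451.5 and 431.9 on average), as did testis and liver (52.56 and 48.53), and cortex (395.8) and muscle (90.6) lay apart from their neighbours. Hnrnpa2b1, which also acts in RNA transport to neuronal processes, had a narrower range, 3.34-fold from cerebellum (546.4 TPM) to liver (163.5 TPM). Hnrnpd, also called AUF1 and known for its role in decay of AU-rich messages, was the least abundant member in each WT tissue. Its mean fell in the order cerebellum 89.15, cortex 81.93, hippocampus 70.9, testis 15.94, muscle 12.99 and liver 9.203 TPM, and of these neighbours only cerebellum and cortex overlapped.

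Hnrnpf and Hnrnph1 encode related proteins that bind G runs, yet their tissue orders differed. Hnrnpf was at 368.9, 391.84 and 371.72 TPM in WT testis and at 198.98, 199.96 and 212.79 in cerebellum, and the groups did not overlap. Hippocampus, liver and cortex could not be ordered for Hnrnpf (137.7, 134.9 and 133.8 TPM on average, with overlapping samples). Hnrnph1 was at 425.39, 388.39 and 438.06 TPM in cerebellum and at 31.57, 45.05 and 43.12 in liver, a 10.5-fold ratio of means, the widest of the 10 genes. No neighbours in the order of Hnrnph1 overlapped: cerebellum, cortex (250.7), hippocampus (240.2), testis (127.8), muscle (78.34) and liver.

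Hnrnpu, which binds chromatin-associated RNA and nuclear scaffold DNA, was at 321.6, 344.46 and 335.6 TPM in testis, close to the brain regions, and at 59.29, 60.92 and 59.1 in muscle. Its ratio from cerebellum (483.6) to muscle (59.77) was 8.09. Hnrnpk, a poly(C)-binding protein gene, varied 4.01-fold (465.3 to 115.9 TPM) with no overlapping neighbours. Hnrnpl, which encodes a protein that binds CA repeats, varied 4.12-fold (225.1 to 54.61 TPM). Hnrnpc, whose product binds U tracts and packages nascent RNA, varied 4.74-fold, and Hnrnpm, a splicing regulator that binds GU-rich sites, 5.13-fold.

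**Figure D1:**
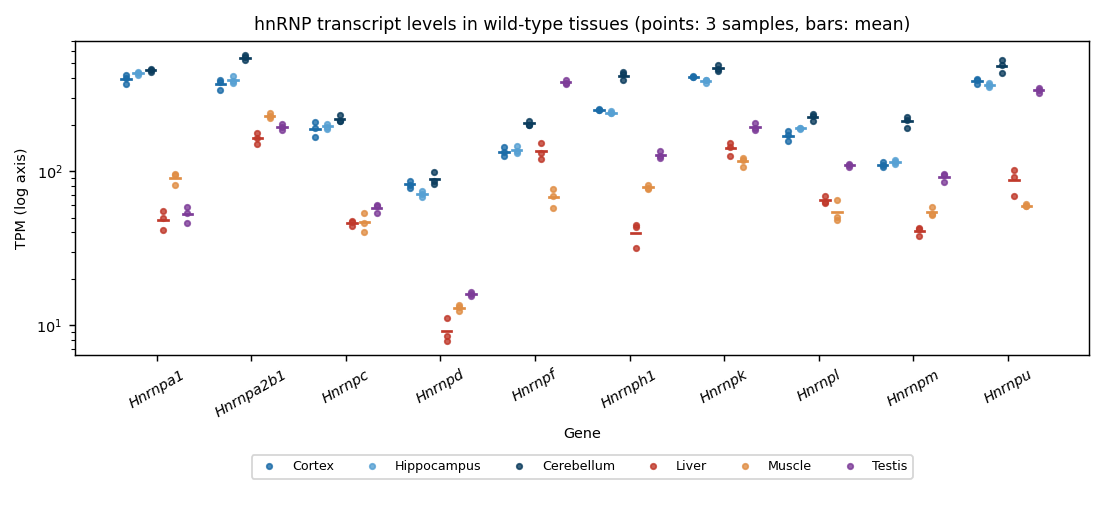
TPM of the 10 hnRNP genes in WT tissues on a log axis, with points for the 3 samples of each tissue and bars for their mean. Cerebellum is highest for every gene but Hnrnpf, which is highest in testis at 377.5 TPM, and Hnrnpd is lowest of the 10 genes in every tissue.

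Within the brain table, cerebellum was compared with the other regions by edgeR's quasi-likelihood test across all genes. Against cortex, 6 of 10 members were called higher and 0 lower, while 67.9% of all 15239 genes tested were called in either direction and 34.6% were called higher. Hnrnpm rose most (172.3 ± 12.58 against 97.58 ± 2.994 CPM (counts scaled to library size), log2 fold change 0.82 ± 0.06 SE, adjusted p = 2.09e-07). Hnrnph1 (0.62), Hnrnpf (0.50), Hnrnpa2b1 (0.46), Hnrnpl (0.30) and Hnrnpu (0.21) followed on the log2 scale, and without cerebellum sample 3 Hnrnpu was not called (0.15, adjusted p = 0.0574). Hnrnpc was also called (0.18, adjusted p = 0.0279) without cortex sample 3. Against hippocampus 7 members were called higher, with 68% of all genes called and 34.6% called higher. These were Hnrnpm (0.75), Hnrnph1 (0.68), Hnrnpf (0.44), Hnrnpa2b1 (0.37), Hnrnpu (0.30), Hnrnpd (0.22) and Hnrnpk (0.16). The Hnrnpd and Hnrnpk calls were lost without cerebellum sample 3 (adjusted p 0.0849 and 0.0547) and without hippocampus sample 3 (0.0931 and 0.0899). Hnrnpa1 differed in direction by scale between these regions, higher in cerebellum in TPM (451.5 against 431.9) and lower in CPM (255.1 against 267.3), and was not called (adjusted p = 0.21). The median member fold change was 0.254 (cerebellum against cortex) and 0.257 (against hippocampus), beside 0.024 and 0.008 over all genes.

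Hippocampus and cortex were close. Of the members 2 were called, Hnrnpa1 higher in hippocampus (0.13 ± 0.05, adjusted p = 0.0416) and Hnrnpd lower (-0.21 ± 0.06, adjusted p = 0.0196), while 43.4% of all genes were called. Both rested on single libraries. The Hnrnpa1 call was lost in 5 of 6 fits with 1 sample left out, all but the one without cortex sample 3, with adjusted p up to 0.124. The Hnrnpd call was lost without cortex sample 3 (0.0616), hippocampus sample 2 (0.0616) or hippocampus sample 3 (0.124). Hnrnpl was called (0.22, adjusted p = 0.0239) without cortex sample 1.

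The peripheral tissues were compared in 1 fit of their WT counts over 10856 shared genes. Between muscle and liver 6 members were called, beside 74.3% of all genes. Hnrnpa1 (0.70) and Hnrnph1 (0.68) were higher in muscle, and Hnrnpf (-1.27), Hnrnpu (-0.84), Hnrnpk (-0.58) and Hnrnpl (-0.55) were lower. Hnrnpd was called too (0.32, adjusted p = 0.0459) without liver sample 2, and Hnrnpc (-0.42, adjusted p = 0.0138) without muscle sample 1. DESeq2 also called Hnrnpa2b1 higher in muscle (0.21, adjusted p = 0.0237). Between testis and liver 6 were called, beside 84.1% of all genes, with Hnrnpu (1.41), Hnrnph1 (1.15), Hnrnpf (0.96) and Hnrnpm (0.62) higher in testis. Hnrnpa1 (-0.31) and Hnrnpa2b1 (-0.30) were called lower in testis in these scaled counts, but their TPM was higher in testis than in liver (52.56 against 48.53, and 194 against 163.5), so the direction of both depends on the scaling. Both calls were lost without testis sample 2 (adjusted p 0.0848 and 0.0525) or testis sample 3 (0.143 and 0.055), and that of Hnrnpa1 also without liver sample 2 (0.1) and by DESeq2 (0.0506). Without liver sample 2 Hnrnpd was called (0.38, adjusted p = 0.0178). Between testis and muscle 8 were called, beside 83.6% of all genes: Hnrnpu (2.24) and Hnrnpf (2.23) showed the widest differences, and Hnrnpa1 (-1.01) and Hnrnpa2b1 (-0.50) were lower in testis. The members' counts were near or below the shares of all genes called in each of these tissue comparisons.

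Over the 12 tissue and genotype groups, 3 genes outside the hnRNP lists had mean log2 CPM most like the members' mean: Dopey1 (Pearson r = 0.987), Brd8 (0.982) and Dnmt1 (0.98), of 10544 genes compared. Among the members, Hnrnpu (0.86) and Hnrnph1 (0.84) were most like their mean, and Hnrnpf (-0.05) and Hnrnpa2b1 (-0.47) least. These correlations are descriptions over groups that share tables and libraries.

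The next comparison asked whether loss of Fmr1 went with another level of these genes. By edgeR, 0 of 10 members were called between KO and WT in each of the 6 tissues, and DESeq2 also called 0. Over all genes the called shares were 0.0203% in cortex, 0.209% in hippocampus, 0.226% in cerebellum, 0.411% in liver, 4.04% in muscle and 4.27% in testis. At an unadjusted p under 0.05 there were 3 members in cortex, all higher (21% of all genes, 10.3% higher), 0 in hippocampus (12.5%), 0 in cerebellum (8.72%), 2 in liver, both lower (11.4%, 6.07% lower), 1 in muscle (25.9%) and 0 in testis (18.3%). In 4 tissues the member counts were below those shares, and in cortex and liver they were above them.

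In cortex 9 of 10 members had a positive fold change, with a median of 0.108 beside -0.002 over all genes. Hnrnpm was at 115, 107 and 110.1 CPM in the KO samples and 95.29, 96.15 and 100.8 in WT. All KO samples lay above all WT samples, and the fold change was 0.19 ± 0.05 (adjusted p = 0.117). Hnrnpc was at 222.6, 222.8 and 217.5 CPM in KO and 171.2, 191.8 and 208.4 in WT, again without overlap (0.22 ± 0.07, adjusted p = 0.15). Hnrnph1 was at 216.2, 215 and 213.3 CPM in KO and 198, 194.4 and 196.9 in WT (0.13 ± 0.05, adjusted p = 0.155). The groups of Hnrnpa2b1 did not overlap either (0.12 ± 0.06, adjusted p = 0.291), and Hnrnpl was the only member with a negative value (-0.13 ± 0.07, adjusted p = 0.311). In the authors' deposited table Hnrnpc (0.21, adjusted p 0.0172), Hnrnph1 (0.12, 0.0209) and Hnrnpm (0.18, 0.0209) passed 0.05 in cortex, beside 12.7% of the 14052 genes with an adjusted p there, and 0 members passed in any other tissue or in N2a. A single fit of all 18 brain samples also called these 3 (adjusted p 0.0393, 0.0486 and 0.0412), beside 8.24% of all genes. Without cortex WT sample 3 the fit of cortex alone called Hnrnpc (0.29, adjusted p = 0.0398). Blood markers (Hbb-bs and Alas2) summed to 388.1 to 398.3 TPM in KO cortex and 436.8 to 553.9 in WT, and their part was not tested. Markers of oligodendrocytes, microglia and endothelium overlapped between genotypes in cortex.

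Tests of the difference between regions called 0 members (0%, 0% and 0.00645% of all genes). The KO effect in hippocampus minus that in cortex had an unadjusted p under 0.05 for 5 members, all lower in hippocampus, against 10.1% of all genes and 4.02% lower. The smallest was that of Hnrnpa1 (-0.20 ± 0.06, adjusted p = 0.369). Cerebellum minus cortex gave 3 such members, all lower, against 15.2% of all genes and 7.42% lower, and cerebellum minus hippocampus 0, against 5.31%. The same 6 cortex samples entered the first and second of these comparisons.

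In liver, Hnrnpa1 was at 36.49, 36.79 and 29.26 CPM in KO and 42.84, 49.21 and 45.85 in WT, without overlap (-0.42 ± 0.13, adjusted p = 0.262). Hnrnpd was at 31.26, 29.33 and 29.67 CPM in KO and 39.77, 46.97 and 34.37 in WT (-0.42 ± 0.14, adjusted p = 0.294). These genes had 393 to 812 counts per liver library. In muscle Hnrnpd was at 50.81, 53.94 and 51.96 CPM in KO and 58.08, 58.96 and 61.44 in WT (-0.19 ± 0.08, adjusted p = 0.188). The summed TPM of the 10 genes in muscle was 958.1 ± 31.34 in KO and 809.2 ± 20.13 in WT (SD, n = 3), while in scaled counts the median member fold change was 0.067 on the log2 scale. In TPM all 10 members had a higher mean in KO, and for 3 of them the direction was opposite to that in scaled counts. Hnrnpd was at 13.39 TPM in KO and 12.99 in WT with overlapping samples, Hnrnpa2b1 was at 248.4 and 228.6 TPM without overlap (-0.10 in scaled counts), and Hnrnpk was at 129 and 115.9 TPM (-0.07 in scaled counts). The direction of these 3 in muscle therefore depends on the scaling. Markers of other cells also differed in muscle: the summed level of 3 fat markers (Adipoq, Plin1 and Cfd) was 222.9 to 559.8 TPM in KO and at most 161 in WT, and that of 3 macrophage markers (Csf1r, Cx3cr1 and Aif1) 19.23 to 25.33 and 9.15 to 13.45. Their part in the muscle values was not tested. All members lay between -0.09 and 0.08 in hippocampus, between -0.04 and 0.08 in cerebellum and between -0.13 and 0.09 in testis (log2 fold change).

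Of 18 other hnRNP and related genes (such as Hnrnpa0, Hnrnpr, Syncrip, Ptbp1 and the Pcbp genes), 0 were called in 5 tissues. In testis 2 were called lower in KO, Hnrnpa3 (67.3 ± 2.369 against 83.65 ± 6.198 CPM, -0.32, adjusted p = 0.0058) and Hnrnpa0 (68.13 ± 8.36 against 81.52 ± 4.616 CPM, -0.26, adjusted p = 0.0349), whose samples overlapped between genotypes. Cell markers also differed in testis. Prm1, Tnp1 and Ldhc summed to 43730 to 44950 TPM in KO and 46460 to 49330 in WT. Leydig cell markers (Insl3, Cyp17a1 and Hsd3b1) summed to 2878 to 3229 and 3274 to 4231 TPM. Their part in these calls was not tested.

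**Figure D2:**
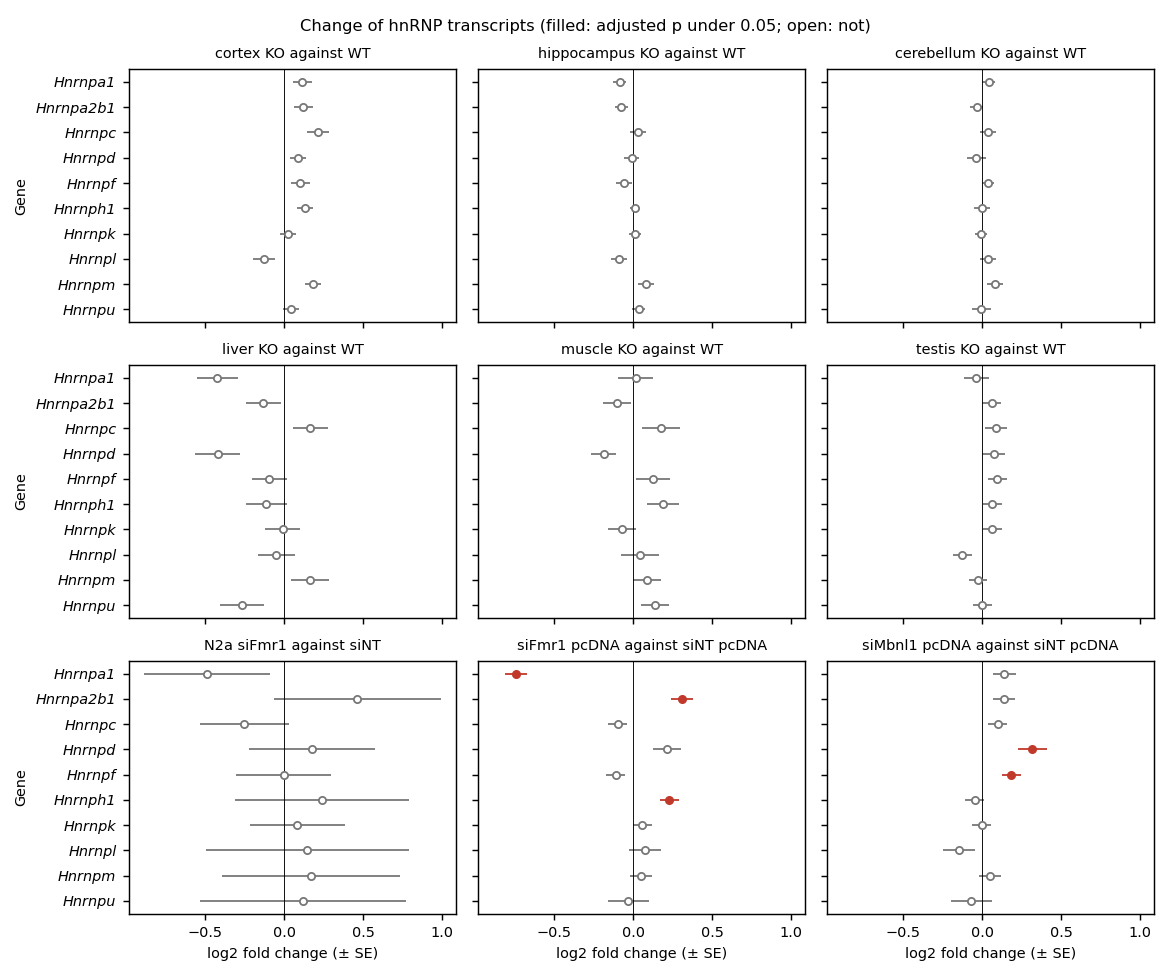
Log2 fold change of the 10 hnRNP genes with its SE for 9 comparisons, where filled points have an adjusted p under 0.05 over all genes of the comparison. All KO comparisons and the first N2a experiment hold open points only, and Hnrnpa1 stands out at -0.74 after siFmr1 with pcDNA.

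In the first N2a experiment 0 members were called by edgeR or DESeq2 and 0 had an unadjusted p under 0.05, beside 0% and 0.386% of all 12187 genes. The spread was wide, with a biological coefficient of variation of 39.9% against 5.99% to 18.5% in the tissues. The first principal component took 67.2% of the variance and put siNT sample 1 with siFmr1 samples 1 and 2, and siNT sample 2 with siFmr1 sample 3. Hnrnpa1 was at 988.8, 972.4 and 553.1 CPM in siFmr1 and at 1452 and 895.6 in siNT, and the groups overlapped (-0.49 ± 0.40, adjusted p = 1). Within each side of that component the siFmr1 samples were lower, by -0.57 and -0.70 on the log2 scale. With the side of that component as a covariate, an alternative chosen after seeing the data, the edgeR value was -0.62 ± 0.19 (adjusted p = 1). Hnrnpu followed the sides, at 1241, 1171 and 475.3 CPM in siFmr1 and 1386 and 385.1 in siNT. Fmr1 counts differed between samples of 1 group as well, 210, 197 and 33 in siFmr1 and 1168 and 326 in siNT.

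The co-transfection experiment compared knockdown of Fmr1 and of Mbnl1 with siNT pcDNA, using limma on log2(value + 1) with all 5 groups in 1 fit. Hnrnpa1 was at 9400, 9243 and 9135 normalized counts in siFmr1 pcDNA and 15954, 15035 and 15459 in siNT pcDNA. The knockdown samples lay close together and all below the controls, at 0.598 of their level (-0.74 ± 0.07, adjusted p = 1.18e-06). Hnrnpa2b1 rose from 20181, 19261 and 21372 to 25498, 25557 and 24353 (0.31 ± 0.07, adjusted p = 0.00203). Hnrnph1 rose from 18654, 19754 and 19288 to 22580, 21993 and 22969 (0.23 ± 0.06, adjusted p = 0.0114). The groups overlapped for none of these 3. Hnrnpd was at 0.22 (adjusted p = 0.0629), and Hnrnpc, Hnrnpf, Hnrnpk, Hnrnpl, Hnrnpm and Hnrnpu lay between -0.11 and 0.08. So 3 of 10 members were called, beside 37% of 16242 genes.

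siNT pcDNA was the most variable group. Its median SD of log2 values was 0.236 over all genes, against 0.0963 to 0.113 in the other groups. Over the 10 members it was smaller, 0.0596 against 0.0332 to 0.0505, and Hnrnpu, the most variable of them, ranged from 23444 to 38116 normalized counts in it. Without siNT pcDNA sample 2 Hnrnpd (0.25) and Hnrnpl (0.21) were also called, 5 members in all. Hnrnpd was also called without siNT pcDNA sample 3 (0.31, adjusted p = 0.0102) or siFmr1 pcDNA sample 3 (0.27, adjusted p = 0.0449). In a fit of the 2 compared groups alone, 1 member remained past the threshold (Hnrnpa1), beside 21.4% of all genes; Hnrnpa2b1 had adjusted p = 0.0508 and Hnrnph1 0.101.

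After siMbnl1 with pcDNA, 2 members were called, both higher, beside 32.8% of all genes called and 17% called higher. Hnrnpd was at 5687, 5860 and 5942 normalized counts against 3933, 4897 and 5311 in siNT pcDNA (0.32 ± 0.09, adjusted p = 0.0105). Hnrnpf was at 17488, 17883 and 17696 against 15685, 15053 and 15977 (0.18 ± 0.06, adjusted p = 0.0247). All siMbnl1 samples lay above all controls for both genes. Hnrnpa1 was at 16884, 17144 and 17163 (0.14 ± 0.07, adjusted p = 0.134), above the controls where siFmr1 lay below them. The Hnrnpf call was lost without siMbnl1 pcDNA sample 1, 2 or 3 (adjusted p 0.0566, 0.0756 and 0.0597), and Hnrnpl was called (-0.27, adjusted p = 0.017) without siNT pcDNA sample 1. A fit of the 2 groups alone called 0 members, beside 13.5% of all genes (Hnrnpd 0.114, Hnrnpf 0.193 adjusted p).

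The knockdowns were compared directly, without siNT pcDNA. Hnrnpa1 in siFmr1 pcDNA was at 0.543 of its level in siMbnl1 pcDNA (-0.88 ± 0.07, adjusted p = 2.24e-07). Hnrnpf was lower (-0.29 ± 0.06, adjusted p = 0.00105), Hnrnph1 was higher (0.28 ± 0.06, adjusted p = 0.00327) and Hnrnpc was lower (-0.19 ± 0.06, adjusted p = 0.0252). These were 4 of 10 members, beside 35.3% of all genes. Hnrnpc was not called without siFmr1 pcDNA sample 1 or 2 (adjusted p 0.0623 and 0.0995) or siMbnl1 pcDNA sample 1 or 2 (0.109 and 0.0839). In a fit of these 2 groups alone Hnrnpa2b1 (0.18, adjusted p = 0.015) and Hnrnpl (0.22, adjusted p = 0.00442) were called as well, beside 46.2% of all genes.

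Plasmid MBNL1 was added on top of each knockdown, and Mbnl1 itself was at 11032 to 13253 normalized counts with nMBNL1 and 16769 to 23339 with cMBNL1. In siFmr1 nMBNL1, Hnrnpa1 was at 9451, 9935 and 11072 normalized counts. Against siFmr1 pcDNA these samples did not overlap, but the difference did not pass (0.13 ± 0.07, adjusted p = 0.342). Hnrnpa2b1 was at 24772, 26217 and 25563 (0.02 ± 0.07, adjusted p = 0.901). By limma 0 members were called for nMBNL1 on siFmr1 and 0 for cMBNL1 on siMbnl1, beside 1.76% and 2.24% of all genes, and 1 and 2 members had an unadjusted p under 0.05 (17.9% and 19.4% of all genes). In a fit of the 2 compared groups alone, 4 members were called higher with cMBNL1 on siMbnl1: Hnrnpu (0.20), Hnrnpm (0.19), Hnrnpl (0.17) and Hnrnpd (0.16), with adjusted p from 0.0223 to 0.0314, beside 14.6% of all genes.

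Against siNT pcDNA, which all of these comparisons share as control, siFmr1 nMBNL1 gave 2 called members beside 41.1% of all genes: Hnrnpa1 (-0.61 ± 0.07, adjusted p = 5.23e-06) and Hnrnpa2b1 (0.33 ± 0.07, adjusted p = 0.00106). Without siNT pcDNA sample 2 there were 5, with Hnrnph1 (0.15), Hnrnpl (0.20) and Hnrnpu (0.22) added, and without siNT pcDNA sample 3 Hnrnpd was called (0.25, adjusted p = 0.0274). In a fit of the 2 groups alone, which called 24.6% of all genes, Hnrnpa2b1 was not called (0.33, with an adjusted p that rounds to 0.05). siMbnl1 cMBNL1 gave 5 called members, all higher, beside 33.7% of all genes called and 17.7% called higher. Hnrnpd was at 6533, 6512 and 6427 normalized counts (0.47 ± 0.09, adjusted p = 0.000579), Hnrnpf at 18642, 18629 and 17949 (0.24 ± 0.06, adjusted p = 0.00481) and Hnrnpa2b1 at 23796, 23877 and 24197 (0.24 ± 0.07, adjusted p = 0.0116). Hnrnpm (0.24 ± 0.07, adjusted p = 0.0162) was not called without cMBNL1 sample 2 (0.0668) or siNT pcDNA sample 1 (0.0582). Hnrnpa1 (0.20 ± 0.07, adjusted p = 0.0368) was not called without cMBNL1 sample 1 (0.152) or 2 (0.0943) or siNT pcDNA sample 3 (0.0624), and Hnrnpu was called (0.32) without siNT pcDNA sample 2. A fit of the 2 groups alone kept only Hnrnpd of the 5, beside 17.4% of all genes. The member counts were near or below the shares of all genes, except for siMbnl1 cMBNL1, where they stood above.

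**Figure D3:**
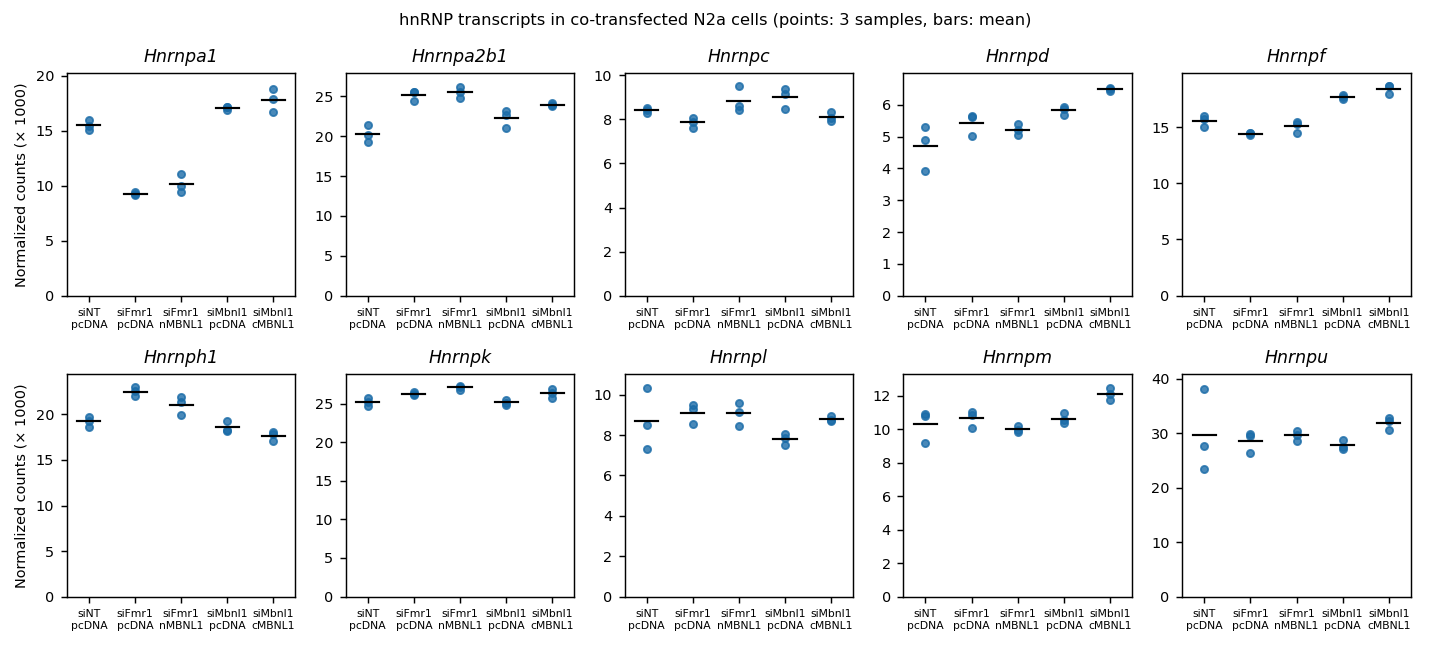
Normalized counts of the 10 hnRNP genes in the 5 co-transfection groups, with points for the 3 samples and bars for the mean, on axes that start at 0. Hnrnpa1 is between 9135 and 11072 in both siFmr1 groups and at least 15035 in the others.

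The 18 other hnRNP and related genes gave 8 called after siFmr1 pcDNA (7 higher), 7 after siMbnl1 pcDNA (7 higher), 8 after siFmr1 nMBNL1 (6 higher) and 9 after siMbnl1 cMBNL1 (8 higher), each against siNT pcDNA. Of all genes 37%, 32.8%, 41.1% and 33.7% were called in these comparisons, and 19.5%, 17%, 21.2% and 17.7% were called higher. The largest values after siFmr1 pcDNA were those of Hnrnph3 (0.71), Hnrnpa0 (0.49) and Hnrnpa3 (0.43). After siMbnl1 pcDNA Hnrnpa0 (0.67) and Hnrnpa3 (0.42) were among the largest. Their median fold changes in these 4 comparisons were 0.129, 0.109, 0.138 and 0.229, beside 0.032, 0.007, 0.038 and 0.026 over all genes. Between the knockdowns 6 of 18 were called, among them Hnrnph3 (0.61) higher and Hnrnpr (-0.41) and Hnrnpdl (-0.39) lower after siFmr1, and 0 were called for the added plasmids.

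Splicing tables gave inclusion and skipping junction reads for a set 1 and a set 2 of replicates, and do not name the group of each set. Tables were listed for 1 tissue each, for the first N2a experiment, and for the co-transfection experiment (table A for siNT pcDNA and siFmr1 pcDNA samples, table B for siMbnl1 pcDNA, table C for siFmr1 nMBNL1, table D for siMbnl1 cMBNL1). Inclusion is the percentage of junction reads between a given pair of flanking exons that include the exon, after correction for the number of junction positions. It is not a share of all transcripts of the gene. A call needed an adjusted p under 0.05 in a quasi-binomial re-test and a difference of at least 10 points. Brain tables counted shorter junction windows than the others, and brain libraries were prepared differently, so levels across tables are descriptions. Differences in inclusion between brain and the other tables cannot be told apart from preparation.

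The Hnrnpa1 exon of 159 bases varied most between tissues. Joined to the next exon, of 156 bases, its inclusion over both sets had a lowest, median and highest value of 42.4%, 58.2% and 71.9% in cortex. Hippocampus (54%, 60.7%, 69.2%) and cerebellum (53.5%, 58.7%, 70.4%) were alike, and muscle was lower (28.7%, 33.4%, 40.7%). N2a (13%, 13.6%, 15.3%), testis (2.3%, 9.2%, 13.4%) and liver (1.6%, 2.8%, 12.6%) mostly skipped it. No brain replicate overlapped with a replicate of muscle, testis, liver or N2a. The largest difference between sets was 8.5 points, in cerebellum (64.7% ± 5.9 and 56.2% ± 2.6, adjusted p = 0.452), from 109 to 169 junction reads per replicate.

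The Hnrnpa2b1 exon of 120 bases was almost always included in brain, with set means from 93.6% to 97.2%. Muscle was at 84.4% and 82.3%, liver at 65.8% and 68.2%, N2a at 66% and 66.7%, and testis at 42.8% and 44.5%. Testis replicates ran from 35.4% to 55.2%. In cerebellum the sets did not overlap (95.4%, 96.8% and 95.6% against 93.5%, 93.6% and 93.6%), a difference of 2.3 points (adjusted p = 0.452). The Hnrnpd exon of 147 bases had another order. It was at 80.4% to 86.5% in cortex, hippocampus and testis, at 73% and 74.5% in cerebellum, and at 53.2% to 57.5% in liver, muscle and N2a (set means).

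Other exons had tissue orders of their own. The Hnrnpa2b1 exon of 136 bases (chr6:51461920-51462055), part of the 3′ untranslated region (UTR) in 1 coding transcript, had set means of 85.6% to 93.8% in the brain regions, 88% and 88.4% in muscle, 71.2% and 74.1% in testis, 51.7% and 51.8% in liver and 47.1% and 46.6% in N2a. The Hnrnph1 exon was at 99% to 100% in the brain regions, 78.1% and 83.7% in liver and 81.1% and 82.9% in testis. A coding Hnrnpk exon of 72 bases (chr13:58396188-58396259) ranged from 80.5% in testis to 95.4% in liver. A coding Hnrnpm exon of 54 bases was at 93.1% to 99.8% where it was listed. All listed exons of Hnrnpf (2 exons), Hnrnpl (7) and Hnrnpu (5) were near full inclusion, with set means of at least 96.7%, 99.2% and 99.8%.

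**Figure D4:**
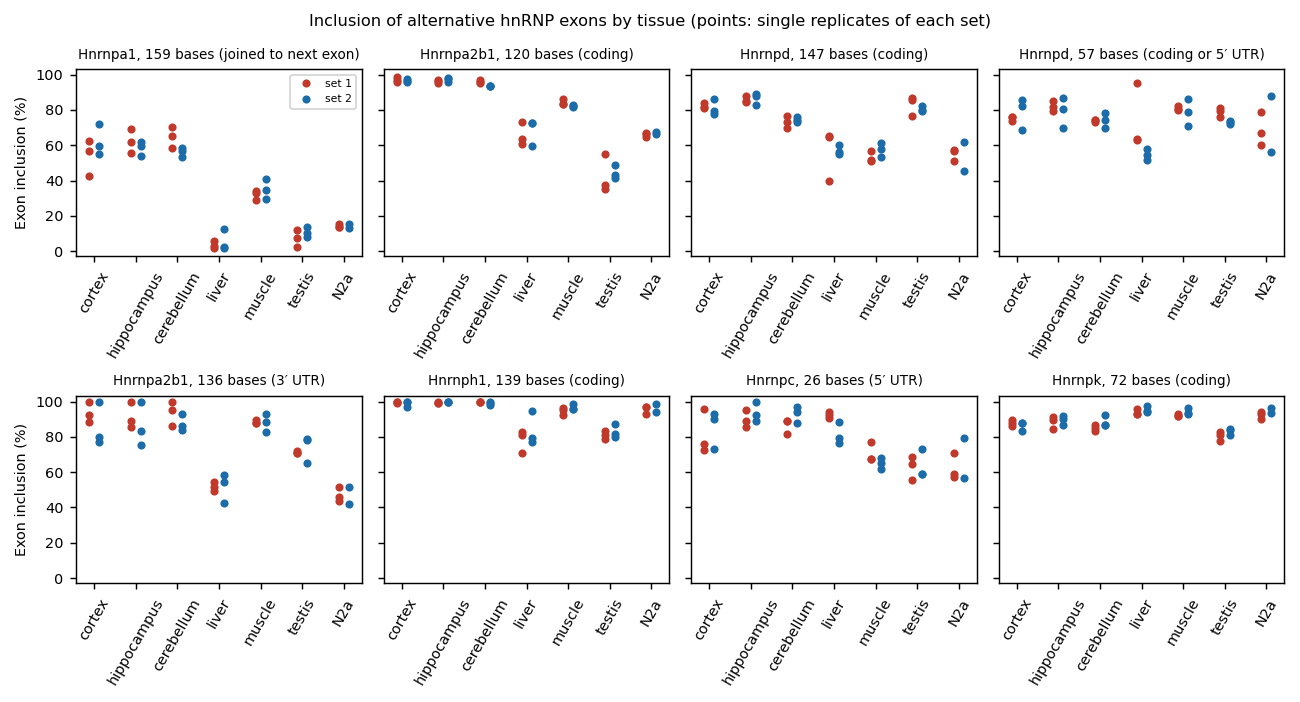
Inclusion (%) of 8 alternative hnRNP exons in the 7 tables of tissues and the first N2a experiment, with 1 point per replicate, red for set 1 and blue for set 2. The Hnrnpa1 exon falls from at least 42.4% in every brain replicate to 1.6% to 13.4% in liver and testis, while the sets overlap for most exons.

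Between the sets of the tissue tables, 1 member event was called. An Hnrnpc exon of 26 bases (chr14:52098015-52098040), in the 5′ UTR of 6 coding transcripts, was at 92.4%, 90.7% and 93.9% in set 1 and 76.5%, 79.5% and 88.5% in set 2 of liver. The sets did not overlap, and the difference was 10.8 points (adjusted p = 0.0491), from 80 to 125 junction reads per replicate. It was not called after leaving out any of the 6 replicates, each in turn, with differences of 8.3 to 14.3 points and adjusted p of 0.111 to 0.486. Liver held 19 member events, all tested, and 0.13% of 9996 events over all genes were called there. In the other tissues 0 member events were called by the re-test or by the deposited rMATS false discovery rate (FDR), of 13 tested in cortex, 15 in hippocampus, 15 of 16 in cerebellum, 25 in muscle, 21 in testis and 38 in N2a. Of all events tested, the re-test called 0%, 0%, 0%, 0.3%, 0.0873% and 0% there, and the deposited FDR called 0.989%, 0.233%, 0.146%, 1.36%, 0.69% and 0.825% (1.19% in liver). At an unadjusted p under 0.05 there were 1, 0, 3, 1, 4 and 3 member events in these 6 tables, beside 8.73%, 5.54%, 4.81%, 8.14%, 10.3% and 6.21% of all tested events, and 5 of 19 in liver, beside 11.8%. In N2a the re-test called 1 member event without replicate 1 of set 1, and 2 without replicate 2 of set 2. Set 2 of N2a held 2 replicates, so the second of these fits has a lone replicate there, which is assumed to vary like the others. In liver the Hnrnpd exon of 57 bases was at 62.9%, 63.8% and 95.5% in set 1 and 51.9%, 54.2% and 57.6% in set 2, a difference of 19.5 points that was not called (adjusted p = 0.236), with as few as 20 junction reads in a replicate.

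The co-transfection tables held more member events, 93, 99, 102 and 99. Set 2 of tables A, B and D held identical reads at 100% of their shared exons, and set 1 of table A equalled set 2 of table C, so these tables share samples and are not independent. As a check, Fmr1 junction reads in table A were 341, 346 and 447 in set 1 and 2076, 3458 and 2432 in set 2. In table B Mbnl1 had 629, 503 and 959 reads in set 1 and 2057, 3041 and 2042 in set 2. Replicate 1 of set 2 in table A had the fewest member junction reads, 276208 against 323122 to 404852 in the others.

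The Hnrnpa2b1 exon of 120 bases was at 68.3%, 67.8% and 69.4% in set 1 of table A and 52.1%, 55.5% and 53.3% in set 2. The sets lay far apart beside their spread, 14.9 points (adjusted p = 4.12e-14), from 1321 to 8586 junction reads per replicate. The lowest count lay in set 2 of table A, while every replicate of table C held at least 6515. Whether this uneven coverage bears on the difference was not tested. Set 1 of table B was at 66.7%, 65% and 68%, which is 12.9 points above the same set 2 (adjusted p = 1.01e-08). Set 1 of table D was at 65.8%, 67.4% and 67.5%, 13.3 points above it (adjusted p = 3.75e-07). Table C showed 67.8% ± 1.1 and 68.5% ± 0.8 (SD, n = 3), a difference of -0.6 points (adjusted p = 0.441). So 12 replicates in 4 separate sets lay at 65% to 69.4%, and the 3 of the shared set 2 at 52.1% to 55.5%. All 3 calls held when any 1 replicate was left out.

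The Hnrnpa2b1 exon of 136 bases moved in other tables. In table C it was at 33%, 30.9% and 28.5% in set 1 and 49.6%, 45.1% and 54.8% in set 2 (-19 points, adjusted p = 1.74e-22), and the call held in every leave-one-out fit. Table D gave 32%, 24.7% and 29.8% against 46.8%, 52.9% and 43.9% (-19 points, adjusted p = 8.46e-05), and table B gave 40.4%, 36.4% and 33.8% against the same set 2 (-11.1 points, adjusted p = 0.00327). Table A showed 49.9% ± 4.9 and 47.9% ± 4.6 (2 points, adjusted p = 0.472). The table D call was lost without replicate 1, 2 or 3 of set 1 (adjusted p 0.0896, 0.113 and 0.107). The table B call was lost without replicate 1, 2 or 3 of set 1 (0.0702, 0.185 and 0.135) or replicate 2 of set 2, where the difference was -8.5 points. This exon held a YGCY motif 4 times on the transcribed strand, against a median of 2 in 1683 exons of its length, of which 84.8% held at least 1.

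The Hnrnpa1 exon of 159 bases appeared in several pairings. Joined to the next exon it was at 11.5%, 12.4% and 11.2% in set 1 of table A and 5.3%, 7.8% and 6.9% in set 2. That difference passed the test (5.1 points, adjusted p = 1.89e-09) but not the 10-point minimum. Joined instead to the exon after that, of 70 bases, it was at 80.9%, 75.2% and 72.4% against 48.4%, 61.1% and 58% (20.3 points, adjusted p = 0.000279), and was called. Tables B, C and D gave 9.5, -5.6 and 10 points for this pairing (adjusted p 0.218, 0.227 and 0.153). Only 184 to 655 junction reads per replicate lay behind it in table A, and the call was lost without replicate 1, 2 or 3 of set 1 (adjusted p 0.0681, 0.0577 and 0.0537).

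In Hnrnph1 the exon of 139 bases was at 93.5%, 93.4% and 93.7% in set 1 of table A and 80.8%, 88.6% and 80.9% in set 2 (10.1 points, adjusted p = 3.83e-09). Without replicate 1 or 3 of set 2 the difference was 8.8 or 8.9 points, below the minimum. Table B gave 6.4 points (adjusted p = 0.00333) and table D gave 4.6 points (adjusted p = 0.113), each against that set 2. An Hnrnpd exon of 57 bases (chr5:99976534-99976590), coding in 2 transcripts and in the 5′ UTR of 2 others, was at 63.3%, 58.2% and 57.3% in set 1 of table A and 77.7%, 68.6% and 69.4% in set 2 (-12.3 points, adjusted p = 0.000179). This call was lost without replicate 2 or 3 of set 1 (adjusted p 0.0796 and 0.136) and without replicate 1 of set 2, where the difference was -9.4 points. The Hnrnpd exon of 147 bases was not called, with 47.7% against 52.3% in table A (adjusted p = 0.0339) and 46.5% against 52.3% in table D (adjusted p = 0.00668), both below 10 points.

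In all, 4 of 91 tested member events were called in table A, 2 of 91 in table B, 1 of 97 in table C and 2 of 93 in table D. Over all genes 0.839%, 0.536%, 0.676% and 0.828% of tested events were called. The deposited rMATS FDR gave the same member counts, 4, 2, 1 and 2, beside 2.11%, 2.36%, 1.45% and 2.35% of all listed events. Member events often share an exon, so these counts are not independent.

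**Figure D5:**
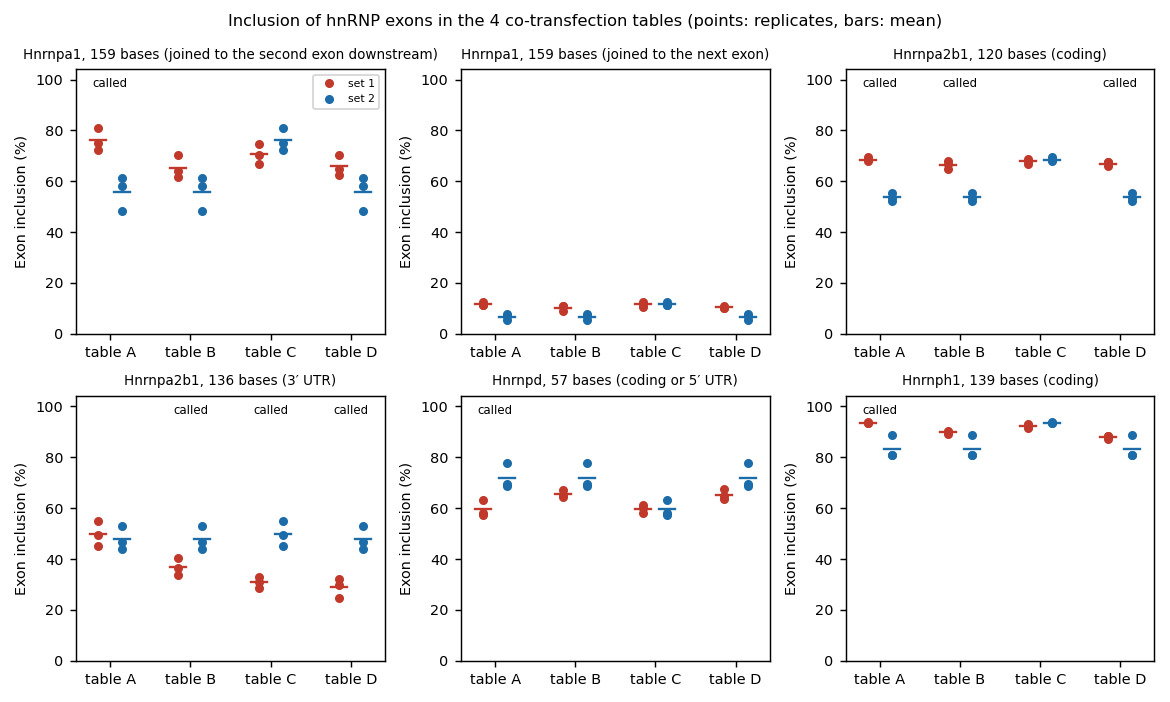
Inclusion (%) of 6 pairings of hnRNP exons in the 4 co-transfection tables, with points for replicates and bars for the mean of set 1 (red) and set 2 (blue), and the word called where the re-test made a call. Set 2 of tables A, B and D is the same set, and the Hnrnpa2b1 exon of 120 bases is at 52.1% to 55.5% in it and at 65% or more in every other set.

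Hnrnpa1 has processed pseudogene copies that could take reads, and 6 members overlap another annotated gene (Hnrnpd, Hnrnpf, Hnrnpk, Hnrnpl, Hnrnpm and Hnrnpu). How the authors' counting treated strand is not known, so the gene counts of these members are uncertain to that degree.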

How the data were processed

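RNA was sequenced from 56 samples in 19 groups, taken from the sample titles. Per the submitters' processing notes, the tools included Trimmomatic 0.39, Bowtie2 2.3.5, STAR 2.6.1, RSEM 1.3.1 and DESeq2 1.16.1, with builds GRCm38 and mm10. Which tool made which value is not stated. The authors deposited whole-number counts and TPM per gene, with their own log2 fold changes and adjusted p-values. For the co-transfection experiment they deposited a signal of normalized counts, by a factor not stated in the table, and whole reads could not be recovered from it. The deposited skipped exon tables of rMATS gave other values, inclusion and skipping junction reads per replicate, with FDR p-values. The muscle file held 4 per-sample columns of 2 samples that match no label, which were not used, and 4 gene names listed more than once in the co-transfection table were left out.

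Counts were filtered (filterByExpr), scaled (TMM) and tested with edgeR 4.0.16, and with DESeq2 1.42.0 as an alternative. Normalized counts with a mean of at least 1 were tested with limma 3.58.1 on log2(value + 1), so fold changes of low genes are understated. Per-sample CPM used scale factors of the whole deposited table, and group means those of the fit. P-values were adjusted by Benjamini-Hochberg over all genes tested, with a threshold of 0.05. Junction reads were tested with a quasi-binomial model (dispersion moderated with limma, at least 1) for events whose mean junction reads reached 20 in each set. R 4.3.3 and Python 3.11.15 were used, and scripts were tested on simulated data. Exon annotation and sequence came from GENCODE M21 and its transcripts on GRCm38.

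The members and lists were chosen with earlier results of these data known. Named exons were all member events called in any table and, per member, the most deeply covered alternative event. Other genes named were, per comparison, the called ones of the list of 18 where at most 6 were called, and otherwise up to 3 of largest fold change. Fmr1 and Mbnl1 checked the labels.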

Additional observations from a re-analysis of the deposited data

Results flagged for a closer look

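Samples of Hnrnpa2b1 separated by genotype in opposite directions in different tissues, in scaled counts only. The gene was picked for this separation, not for a call. No share of all genes that separate in this way is given beside it. With so few samples per group, such separation can arise by chance. In liver each KO sample lay below each WT sample (212.2, 206.6 and 191.6 CPM in KO, 220.3, 231 and 219.4 in WT), with a log2 fold change of -0.13. In cortex each KO sample lay above each WT sample (318.6, 325.5 and 316.1 CPM in KO, 272.3, 303.6 and 308.1 in WT), with 0.12. Muscle also gave lower values in every KO sample (302.7, 311.4 and 298.3 CPM in KO, 326.9, 320 and 334.4 in WT), with -0.1 against 0.12 in cortex. In TPM the KO samples of muscle lay above those of WT instead (244.5 to 255.72 against 221.65 to 236.92), as in cortex, and those of liver overlapped with WT (142.26 to 161.04 against 149.3 to 176.15), so these directions depend on the scaling. These differences between tissues were not tested, and none of the 3 fold changes was called on its own. All groups held 2 or 3 samples, so single samples were not tested as outliers.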

How the results depend on the processing

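No value called in the main fit changed sign under any alternative fit that was run. Some values called only in an alternative fit did, such as Hnrnpu for siMbnl1 cMBNL1 against siNT pcDNA (-0.03 to 0.32). TPM was not one of these fits, and in it Hnrnpa1 and Hnrnpa2b1 had the other direction between testis and liver. The counts of called members kept within 1.5 times under DESeq2, without the filter on low counts or values, and with log2(value + 5). One fit of the 18 brain samples called 3 members in cortex. A fit of only the 2 compared groups called 1 for siFmr1 pcDNA, 0 for siMbnl1 pcDNA, 1 for siFmr1 nMBNL1 and 1 for siMbnl1 cMBNL1, each against siNT pcDNA, and 4 for siMbnl1 cMBNL1 against siMbnl1 pcDNA. Without the 10-point minimum, 8, 4, 7 and 5 member events passed in co-transfection tables A to D, beside 1.93%, 1.12%, 3.56% and 3.04% of all tested events; this drops a criterion. The cause of the other changes was not tested.

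Leaving out 1 replicate gave 0 to 1 called members in cortex KO against WT, 3 to 5 for siFmr1 pcDNA, 1 to 3 for siMbnl1 pcDNA, 2 to 5 for siFmr1 nMBNL1, 3 to 6 for siMbnl1 cMBNL1 and 3 to 4 between the knockdowns. Between WT tissues it gave 0 to 2 (hippocampus against cortex), 5 to 7 (cerebellum against cortex and against hippocampus), 6 to 7 (muscle against liver) and 4 to 6 (testis against liver). Called exons numbered 0 in every such fit of liver, 0 to 2 in N2a, and 2 to 4, 1 to 2 and 1 to 3 in co-transfection tables A, B and D.

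Nothing in the labels says that a number marks a shared animal or day. For no 2 groups did all 3 same-numbered pairs have a correlation of their deviations over 0.1 (from -0.63 to 0.7 over all pairs), so numbers were not taken to pair samples. KO cerebellum and hippocampus came closest (0.09, 0.21 and 0.23, each cerebellum sample correlating best with its own number), a hint from the data and not from the design. With the replicate block, 23 of 23 counts of called members were unchanged within 1.5 times. With it, Hnrnpl was called between WT hippocampus and cortex (0.16, adjusted p = 0.0436), and Hnrnpa1 was not called for siMbnl1 cMBNL1 (0.20, adjusted p = 0.051). Not run were edgeR on whole reads of the co-transfection experiment, which could not be recovered, and a replicate block for exons, whose replicates carry no number. Junction reads limit the exon results: 19 to 125 per liver replicate lay behind the Hnrnpa1 exon.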
